A study of Mus musculus with 10 samples.

Results

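Calcium that enters a pancreatic islet cell during a stimulus has to leave the cytosol again, and 2 systems of the plasma membrane do this. Calcium pumps (the Atp2b genes, also called PMCA) export calcium at the cost of ATP, and sodium-calcium exchangers (the Slc8 genes, also called NCX) export it in exchange for sodium that flows in. Voltage-gated sodium channels (the Scn genes) let sodium enter during an action potential, and so they help to set how often an islet cell fires and how much sodium the exchangers meet. The 9 genes described here are the pumps Atp2b1, Atp2b2 and Atp2b4, the plasma membrane exchangers Slc8a1 and Slc8a2, the mitochondrial exchanger Slc8b1 (also called NCLX), and the pore-forming α subunits Scn3a, Scn8a and Scn9a. They were taken by name from the 47340 genes of the table of islet mRNA levels.

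The islets came from male mice aged 12 wk that were fed chow, with 5 floxed control (FL) littermates and 5 βFIT2KO (KO) mice and 1 library per mouse. In FL mice the gene of FIT2 (Fitm2) is flanked by loxP sites. FIT2 is a protein of the endoplasmic reticulum that is needed for lipid droplet formation. The GEO genotype label calls the FL mice wild type while their titles call them Flox. KO mice carry the same floxed gene and in addition the transgene B6.Cg-Tg(Ins2-cre)25Mgn/J, in which an insulin promoter of the rat drives Cre recombinase in β cells. Both groups thus share the floxed allele, and no library analysed here came from islets that had Cre but an unfloxed Fitm2, so that an effect of Cre and one of FIT2 loss cannot be told apart. The islets were cultured overnight before RNA was taken. Islets are a mixture of cell types, and in such bulk RNA fewer cells of a type and less RNA per cell cannot be told apart.

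Levels are in FPKM, in which fragments are scaled by exon length and by sequencing depth, so that they can be set side by side between genes. A gene was called when its difference between KO and FL had an adjusted p of at most 0.05 by limma on log2(FPKM + 1), fitted over the 13065 genes whose group mean reached 1 FPKM in at least 1 group. Fold changes are given on this scale, where the added 1 makes the change of weakly expressed genes look smaller. The exact permutation test that stands beside it is two-sided, and its smallest p with 5 mice against 5 is 0.00794.

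Fitm2, the targeted gene, lay between 15.5 and 37.1 FPKM in FL islets and between 4.30 and 9.13 FPKM in KO islets, with a log2 fold change of −1.58 ± 0.28 (SE, limma) and an adjusted p of 0.00228. Summed over all genes, a library held 646233 to 675470 FPKM in FL and between 627084 and 653292 in KO, and relative depth, set against FL mouse 1, was 1.4 to 2.41 in the other FL libraries and 1.51 to 2.04 in the KO libraries. No 2 of the 10 libraries held identical values. The labelled tissue was checked against its markers, and Ins1, Ins2, Iapp and Gcg, the hormone genes of β and α cells, are listed at 0 in all 10 libraries, where a value of 0 can be a failed estimate. Of the 7 other β cell markers, all measured, 6 were called lower in KO (Ucn3, Slc2a2, Mafa, Pdx1, Nkx6-1 and Slc30a8), and G6pc2 was not called. The summed level of the β cell markers was 2274 to 2845 FPKM in FL and 1511 to 2125 FPKM in KO. Of the α cell markers Irx1 and Ttr were called lower among 5 tested (sum 434.5 to 650.4 FPKM in FL and 288.5 to 429.4 FPKM in KO), of the δ cell markers Sst among 4 (4960 to 5852 and 3993 to 5339 FPKM), and of the duct markers Krt7 among 2 (438.3 to 520.2 and 355.1 to 413.4 FPKM). The α, δ and duct sums came mostly from Ttr, Sst and Krt7. The other duct marker tested, Krt19, was not called (mean 30.86 FPKM in FL and 29.85 FPKM in KO), and Sox9 was too low to be tested. Called higher were the stellate cell markers Col1a1, Col1a2, Col3a1 and Pdgfrb, 4 of 4 (9.61 to 17.3 FPKM in FL and 21.4 to 26.7 FPKM in KO), the endothelial markers Pecam1, Cdh5 and Plvap, 3 of 4 (105.0 to 122.0 and 126.0 to 170.5 FPKM), and the leukocyte marker Cd68, 1 of 3 tested (24.4 to 29.9 and 37.9 to 44.5 FPKM). None was called of the 2 PP cell markers (Ppy the highest, sum 5375 to 21560 and 12400 to 17340 FPKM) and the 4 acinar markers (Ctrb1 the highest, 2896 to 7242 and 1895 to 13520 FPKM), and the Schwann cell genes Sox10 and Cdh19 and the smooth muscle genes Acta2 and Myh11 were too low to be tested. The acinar sum was highest, at 13520 FPKM, in KO mouse 5, without which the calls on the 9 genes, 4 lower and 1 higher, were the same in number. The part of these marker shifts in the results on calcium and sodium transport was not tested.

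Of the 9 genes, 4 were lower in KO islets, 1 was higher and 4 were not called. Atp2b4 and Atp2b2 fell among the pumps, and Slc8a1 and Slc8a2 fell among the exchangers, while Scn9a rose to 3.05 times its FL level. Atp2b1, the pump with the highest level, was not called, and neither were Slc8b1, Scn3a and Scn8a. Of all genes tested, 16.5% were called lower, 9.05% were called higher and 25.5% were called in either direction. All 9 genes passed the filter on low values, Slc8a2 through its FL level alone, since its KO mean was 0.997 FPKM. The FL and KO values of 5 of the 9 genes had no overlap, with KO below FL in 4 genes and above it in 1. Over all genes tested, KO lay wholly below FL in 12.5%, wholly above it in 6.67% and either way in 19.1%. The median log2 fold change of the 9 genes was −0.17, and that of all genes tested was −0.06. For each of the 5 called genes the exact permutation test gave p = 0.00794, the smallest it can give, and for Slc8b1, Scn8a and Scn3a it gave 0.183, 0.238 and 0.318 (exact permutation test, n = 5 per group).

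**Figure D1:**
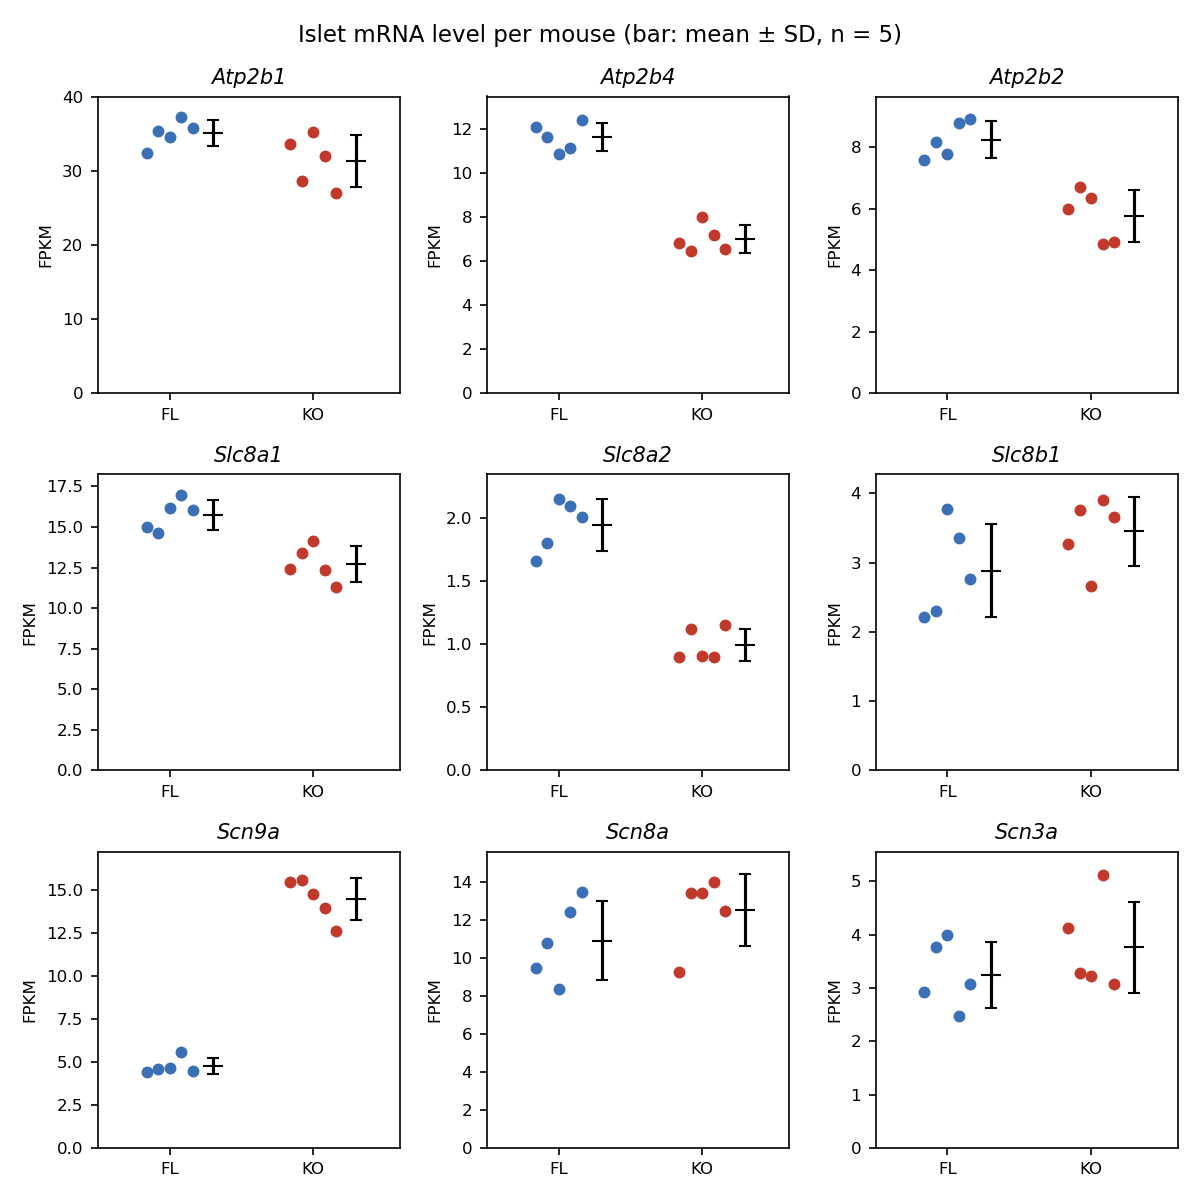
Level of each of the 9 genes in FPKM (vertical axis, from 0) in the islets of each FL mouse (blue points) and each KO mouse (red points), with the mean ± SD (n = 5) as a bar beside them. The KO points lie wholly below the FL points for Atp2b4, Atp2b2, Slc8a1 and Slc8a2 and wholly above them for Scn9a, where KO islets reach 12.6 to 15.6 FPKM, and the other 4 panels overlap.

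**Figure D2:**
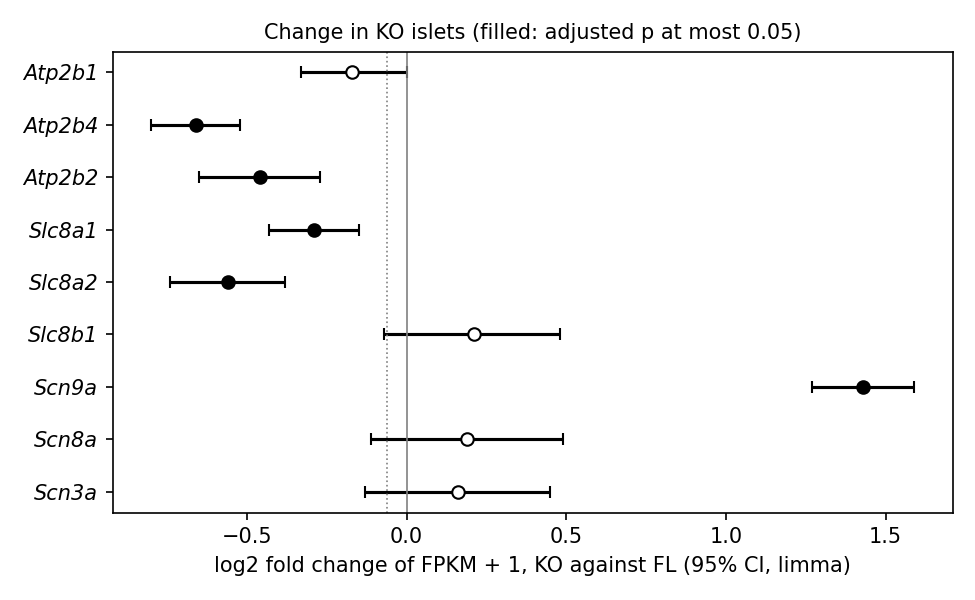
Log2 fold change of FPKM + 1 in KO against FL for each gene (horizontal axis) with its 95% confidence interval from limma, filled where the adjusted p is at most 0.05. The dotted line is the median of all genes tested, −0.06. Scn9a stands apart at 1.43, and the 4 filled points below 0 run from −0.66 for Atp2b4 to −0.29 for Slc8a1.

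The stretches of DNA before a RefSeq start of 3 genes are shown for the largest rise (Scn9a), the largest fall on the log2(FPKM + 1) scale (Atp2b4) and the gene whose FPKM fell by the greatest share (Slc8a2). Each is the 250 bases upstream of a RefSeq start on GRCm38.p6, written 5′ to 3′ along the gene's strand, with motif matches in capitals. The windows are chr2:66634963-66635212 (minus strand) for Scn9a, chr1:133753748-133753997 (minus strand) for Atp2b4 and chr7:16129576-16129825 (plus strand) for Slc8a2.
Scn9a: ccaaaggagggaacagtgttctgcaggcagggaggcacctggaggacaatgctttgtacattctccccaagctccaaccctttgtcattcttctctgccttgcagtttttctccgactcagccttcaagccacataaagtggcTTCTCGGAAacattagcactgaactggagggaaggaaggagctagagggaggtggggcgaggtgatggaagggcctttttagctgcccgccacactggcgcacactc
Atp2b4: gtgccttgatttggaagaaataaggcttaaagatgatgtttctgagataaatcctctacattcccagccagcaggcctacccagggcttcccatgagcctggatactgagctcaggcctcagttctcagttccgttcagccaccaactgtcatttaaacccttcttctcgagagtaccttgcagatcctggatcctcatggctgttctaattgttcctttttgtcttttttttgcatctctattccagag
Slc8a2: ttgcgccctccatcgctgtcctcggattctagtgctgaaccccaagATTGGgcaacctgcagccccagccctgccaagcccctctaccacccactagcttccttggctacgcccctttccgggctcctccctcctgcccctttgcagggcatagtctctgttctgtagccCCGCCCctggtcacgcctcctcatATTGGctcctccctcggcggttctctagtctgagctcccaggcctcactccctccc

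The Scn9a window holds 5 CpG dinucleotides and 54.4% G and C, the Atp2b4 window 2 and 45.6%, and the Slc8a2 window 9 and 63.2%, where the median over all RefSeq promoters is 6 CpG. Letter patterns were searched on both strands, and the matches printed here do not overlap. TTCNNNGAA, the pattern bound by STAT factors, was found in the Scn9a window between 107 and 99 bases before the start and in no other window of these genes, and 7.0% of the 32851 RefSeq promoters hold it. In the Slc8a2 window CCAAT was found on the other strand at 204 to 200 and at 56 to 52 bases before the start, and GGGCGG on the other strand at 80 to 75 bases. Of all promoters, 33.8% hold CCAAT and 32.7% hold GGGCGG, which 5 of the 11 windows of these genes hold. TGACGTCA (1.5% of all promoters), CACGTG (6.0%) and TATAAA (12.4%) were in none of the 11 windows, and the Atp2b4 window holds no match to any of the patterns. This Atp2b4 window and its start lie inside the GENCODE gene, so that its values do not describe the DNA before the 5′ end of that gene. RefSeq windows were matched for 7 of the 9 symbols, and not for Slc8b1 and Scn3a.

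Of the 3 calcium pumps, 2 fell. Atp2b4 encodes PMCA4, a pump that calmodulin activates, and lies on chr1:133699457-133801041 of GRCm38 (ENSMUSG00000026463.17). In FL mice 1 to 5 it was at 12.1, 11.7, 10.9, 11.1 and 12.4 FPKM, and in KO mice 1 to 5 at 6.82, 6.47, 8.01, 7.19 and 6.55 FPKM. The KO libraries all lay below the FL libraries, with a gap from 8.01 to 10.9 FPKM between the nearest ones. Its mean fell from 11.6 ± 0.644 to 7.01 ± 0.627 FPKM (SD, n = 5), 0.603 times the FL level, and its log2 fold change was −0.66 ± 0.06 (SE, limma), with an adjusted p of 3.11e-05. With any 1 mouse left out the log2 fold change of Atp2b4 lay between −0.70 and −0.64. Of the genes annotated within it, Mir6903 was listed at 0 in every library, and Gm37368 was listed at between 0 and 0.0117 FPKM.

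Atp2b2 encodes PMCA2, a fast pump best known from neurons and from hair cells of the ear, and lies on chr6:113743831-114042613 (ENSMUSG00000030302.16). It was at 7.60, 8.17, 7.77, 8.80 and 8.91 FPKM in FL mice 1 to 5 and at 5.98, 6.69, 6.36, 4.86 and 4.91 FPKM in KO mice 1 to 5. The groups did not overlap, and KO mice 4 and 5 were lower than the other KO mice by more than 1 FPKM. The mean fell from 8.25 ± 0.591 to 5.76 ± 0.839 FPKM (SD, n = 5), which is a log2 fold change of −0.46 ± 0.09 (SE, limma) and an adjusted p of 0.0033. Genes annotated within Atp2b2, on either strand, were each at 0.0837 FPKM or less in every library.

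Atp2b1 encodes PMCA1, the pump found in nearly every cell type, and lies on chr10:98914406-99026143 (ENSMUSG00000019943.9). It was at 32.5, 35.3, 34.6, 37.2 and 35.8 FPKM in FL mice 1 to 5 and at 33.6, 28.6, 35.3, 32.0 and 27.0 FPKM in KO mice 1 to 5. KO mice 2, 4 and 5 were below the lowest FL mouse, while KO mice 1 and 3 were within the FL range. The means were 35.1 ± 1.76 and 31.3 ± 3.47 FPKM (SD, n = 5), and the difference was not called, with a log2 fold change of −0.17 (95% confidence interval −0.33 to 0.00, adjusted p = 0.127 from limma). The exact permutation test over the 5 FL and 5 KO mice gave p = 0.0635. Without KO mouse 3 the adjusted p from limma was 0.0559, the lowest that leaving out 1 mouse gave.

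The 3 measured pumps and Atp2b3, which was at 0.174 FPKM or less in every library, summed to 52.2 to 57.2 FPKM in FL islets and to 38.4 to 49.7 FPKM in KO islets. These sums did not overlap, and their means were 55.0 ± 2.28 and 44.1 ± 4.32 FPKM (SD, n = 5). Within the sum, Atp2b1 made up 62.2 to 65.1% in FL mice and 68.4 to 72.4% in KO mice. Atp2b4 made up 19.5 to 23.2% in FL mice and 14.7 to 17.0% in KO mice. The share of Atp2b2 overlapped between the groups, at 15.0 ± 0.466% and 13.1 ± 1.82% (SD, n = 5). The share of the ubiquitous pump was thus higher, and that of Atp2b4 lower, in each KO mouse than in each FL mouse.

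Pumps do not work alone, and basigin (Bsg) and neuroplastin (Nptn) are subunits that bring them to the membrane while calmodulin activates them. Of Bsg, Nptn, Calm2, Calm3 and Atp2b3, 4 were tested, 1 was called lower and 1 higher, and the median of their log2 fold changes was 0.03. Bsg was at 525.0 to 581.6 FPKM in FL mice and at 401.6 to 462.2 FPKM in KO mice, with a log2 fold change of −0.38 and an adjusted p of 0.000397 (limma). Nptn was at 185.0 ± 19.7 FPKM in FL mice and 229.0 ± 29.2 FPKM in KO mice (SD, n = 5), with overlapping groups and a log2 fold change of 0.30 and an adjusted p of 0.0376 (limma). The call on Nptn was lost without FL mouse 1, 4 or 5 and without KO mouse 2 or 3, with adjusted p from 0.0574 to 0.0824 in those 5 fits. The calmodulin genes Calm2 and Calm3 were not called.

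Of the exchangers, Slc8a1 encodes NCX1, the form best known from the heart and also found in β cells, and lies on chr17:81373105-81738377 (ENSMUSG00000054640.14). In FL mice 1 to 5 it was at 15.0, 14.7, 16.2, 17.0 and 16.03 FPKM, and in KO mice 1 to 5 at 12.4, 13.4, 14.1, 12.3 and 11.3 FPKM. The highest KO mouse, at 14.1 FPKM, lay just under the lowest FL mouse, at 14.7 FPKM, so that the groups did not overlap but came close. The mean fell from 15.8 ± 0.935 to 12.7 ± 1.09 FPKM (SD, n = 5), which is a log2 fold change of −0.29 ± 0.06 (SE, limma) and an adjusted p of 0.00744. Of 2 genes annotated across it on the other strand, Gm11096 is listed at 0 in all 10 libraries and AC122399.1 was not analysed here.

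Slc8a2 encodes NCX2, a form known mainly from brain, and lies on chr7:16129826-16161063 (ENSMUSG00000030376.7). It was at 1.66, 1.81, 2.16, 2.10 and 2.01 FPKM in FL mice 1 to 5 and at 0.900, 1.12, 0.910, 0.904 and 1.15 FPKM in KO mice 1 to 5. The 5 KO mice all lay under the 5 FL mice, and 3 of the KO mice lay within 0.01 FPKM of each other. The mean fell to 0.512 times its FL level, from 1.95 ± 0.208 to 0.997 ± 0.127 FPKM (SD, n = 5). The size of this change on a log scale rests on the pseudocount, since the level is low: the log2 fold change was −0.56 ± 0.08 (SE) with a pseudocount of 1, where limma gave an adjusted p of 0.000759, −0.90 with 0.1 and −0.96 with 0.01.

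Slc8b1 encodes the exchanger that takes calcium out of mitochondria, and lies on chr5:120511168-120534024 (ENSMUSG00000032754.14). It was at 2.22, 2.30, 3.77, 3.36 and 2.77 FPKM in FL mice 1 to 5 and at 3.28, 3.76, 2.66, 3.90 and 3.66 FPKM in KO mice 1 to 5. The groups overlapped widely, and FL mice 1 and 2 were the lowest of all 10. Its log2 fold change was 0.21 (95% confidence interval −0.07 to 0.48, adjusted p = 0.256 from limma), so that no change was shown in either direction.

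Together, Slc8a1, Slc8a2 and Slc8a3 summed to 16.5 to 19.1 FPKM in FL mice and to 12.5 to 15.1 FPKM in KO mice, without overlap. Slc8a1 made up 88.8 ± 0.648% of the sum in FL and 92.4 ± 1.16% in KO (SD, n = 5), and Slc8a2 the larger part of the rest, at 10.9 ± 0.644% and 7.30 ± 1.24%. The Atp2b pumps and the plasma membrane exchangers of the Slc8 family added together, without the Slc24 exchangers, were at 68.9 to 76.2 FPKM in FL mice and at 50.9 to 64.8 FPKM in KO mice. The means of this total were 72.8 ± 3.02 and 57.9 ± 5.09 FPKM (SD, n = 5).

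Of 6 further exchanger genes, 1 had a mean of at least 1 FPKM. This was Slc24a2, which encodes an exchanger that also carries potassium. At 31.7, 34.3, 36.3, 38.1 and 37.2 FPKM in FL mice 1 to 5 and 28.4, 30.9, 29.5, 29.0 and 23.6 FPKM in KO mice 1 to 5, its level was higher than that of Slc8a1 in every library. It was called lower, with a log2 fold change of −0.32 ± 0.08 (SE, limma) and an adjusted p of 0.0108, and its groups did not overlap. The means of Slc8a3, Slc24a1, Slc24a3, Slc24a4 and Slc24a5 were under 1 FPKM in both groups.

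Of the 3 sodium channel subunits 1 was called, and it rose. Scn9a encodes the pore of Nav1.7, a channel best known from pain-sensing neurons and also a main sodium channel of mouse β cells, and lies on chr2:66480080-66634962 (ENSMUSG00000075316.11). In FL mice 1 to 5 it was at 4.44, 4.59, 4.64, 5.56 and 4.48 FPKM, and in KO mice 1 to 5 at 15.5, 15.6, 14.7, 14.0 and 12.6 FPKM. The lowest KO mouse was at more than 2 times the highest FL mouse. The mean rose from 4.74 ± 0.464 to 14.5 ± 1.22 FPKM (SD, n = 5), which is a log2 fold change of 1.43 (95% confidence interval 1.27 to 1.59, adjusted p = 2.52e-07 from limma, exact permutation p = 0.00794). With any 1 mouse left out the log2 fold change of Scn9a lay between 1.40 and 1.48. Genes annotated within Scn9a, on either strand, were each at 0.0849 FPKM or less in every library.

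Scn8a encodes Nav1.6, a channel of the axon initial segment in neurons, and lies on chr15:100869858-101045938 (ENSMUSG00000023033.14). It was at 9.48, 10.8, 8.39, 12.4 and 13.5 FPKM in FL mice 1 to 5 and at 9.29, 13.5, 13.5, 14.0 and 12.5 FPKM in KO mice 1 to 5. Both groups were spread over several FPKM and overlapped, with KO mouse 1 apart from the other KO mice at the low end. Its log2 fold change was 0.19 (95% confidence interval −0.11 to 0.49, adjusted p = 0.334 from limma).

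Scn3a encodes Nav1.3, a channel of the developing nervous system that is also found in islet cells, and lies on chr2:65457118-65567627 (ENSMUSG00000057182.14). It was at 2.92, 3.76, 3.99, 2.48 and 3.08 FPKM in FL mice 1 to 5 and at 4.12, 3.28, 3.22, 5.11 and 3.07 FPKM in KO mice 1 to 5. The groups overlapped, and KO mouse 4 was the highest of all 10. The antisense gene Gm13595 is listed at 0 throughout. Its log2 fold change was 0.16 (95% confidence interval −0.13 to 0.45, adjusted p = 0.417 from limma). For both Scn8a and Scn3a the interval also holds rises well above the median of all genes, so that these data do not show that the 2 genes were unchanged.

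Over the 8 voltage-gated α subunits reported here, the summed level was 17.0 to 21.3 FPKM in FL mice and 28.4 to 33.3 FPKM in KO mice, without overlap. Without Scn9a the sums overlapped, at 12.5 to 16.8 FPKM and 13.6 to 19.4 FPKM. Scn9a made up 21.1 to 26.9% of this α subunit mRNA in FL mice and 41.9 to 53.2% in KO mice. Scn8a, at 48.7 to 63.5% in FL mice and 31.9 to 44.0% in KO mice, was the leading α subunit in every FL library and had the lower group mean of these 2 genes in KO islets. In KO mouse 4 the 2 genes were almost level, with Scn8a at 14.02 FPKM still above Scn9a at 13.96 FPKM. Scn2a was at 0.176 FPKM or less in every library, Scn1a, Scn4a and Scn11a were at 0.0729 FPKM or less, and Scn10a is listed at 0 in all 10 libraries.

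**Figure D3:**
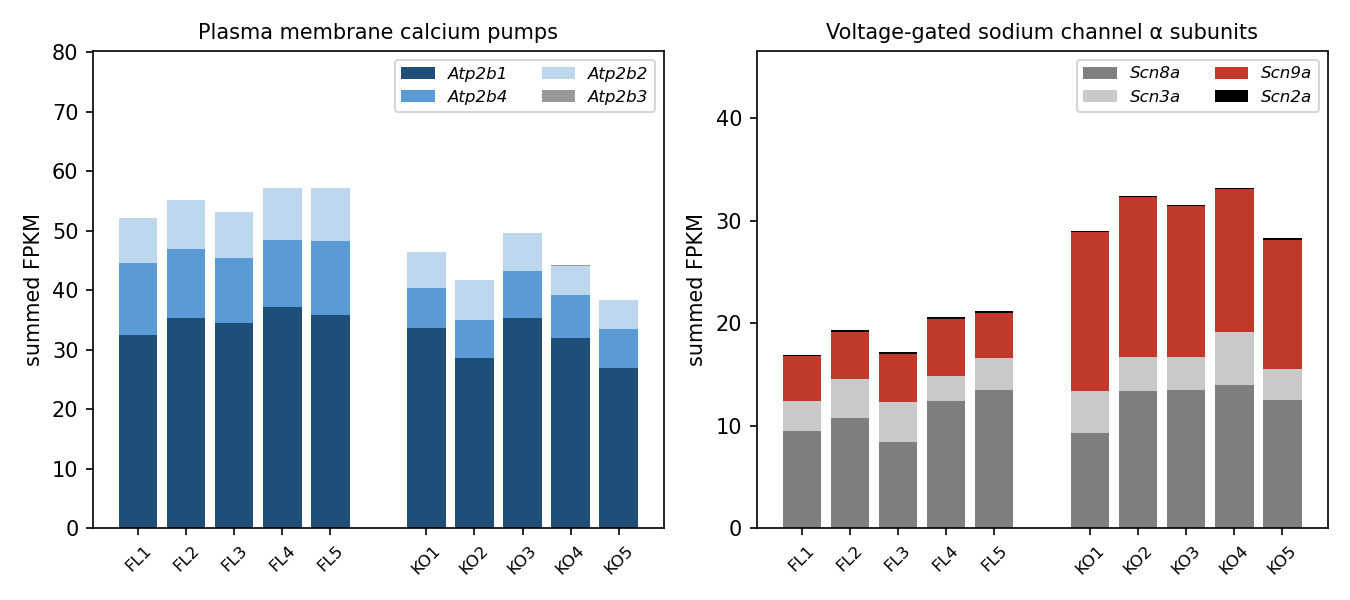
Summed FPKM per library (vertical axes, from 0) of the plasma membrane calcium pumps (left) and of the voltage-gated sodium channel α subunits with visible levels (right), stacked by gene, for FL mice 1 to 5 and KO mice 1 to 5. Pump totals are lower in every KO library than in every FL library, with most of the total from Atp2b1, and the red Scn9a layer makes up 41.9 to 53.2% of the α subunit total in KO mice and 21.1 to 26.9% in FL mice.

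The order of levels differed between the groups. In FL islets it ran from Atp2b1 through Slc8a1, Atp2b4, Scn8a, Atp2b2, Scn9a, Scn3a and Slc8b1 to Slc8a2. Neighbours whose ranges overlapped in FL were Atp2b4 with Scn8a, Scn8a with Atp2b2, and Scn3a with Slc8b1. In KO islets Scn9a stood second, after Atp2b1, but its range overlapped that of Slc8a1, which overlapped that of Scn8a. Atp2b4, Atp2b2, Scn3a and Slc8b1 followed, each overlapping the next, and Slc8a2 was again the lowest, below the range of Slc8b1.

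The α subunits work with smaller β subunits, which shape gating and carry the channel to the membrane, and with FGF-family proteins that bind their tails. Of those reported here, 3 had a mean of at least 1 FPKM. The highest of them, Fgf12, at 7.54 ± 0.192 FPKM in FL mice and 6.88 ± 0.718 FPKM in KO mice (SD, n = 5; limma, adjusted p of 0.192), was not called, and neither were Fgf14 and the β3 subunit gene Scn3b. The median log2 fold change of these 3 genes was −0.12. The sodium leak channel Nalcn, which is related to these α subunits but is not gated in the same way, was at 11.4 ± 0.417 FPKM in FL mice and 10.7 ± 1.03 FPKM in KO mice (SD, n = 5) and was not called (adjusted p = 0.352 from limma).

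Sodium that enters is pumped out by the sodium pump, a catalytic α subunit (Atp1a), a β subunit (Atp1b) and a small FXYD protein that adjusts it. Of 12 genes reported here 9 were tested, 3 were called lower and 1 higher, and the median of their log2 fold changes was −0.04. The β subunit genes Atp1b1 and Atp1b3 were not called. The falls without overlap were those of Fxyd6, from 123.3 ± 6.09 to 63.4 ± 3.12 FPKM (log2 fold change −0.95, adjusted p = 3.77e-07 from limma), of Fxyd3, from 54.8 ± 9.07 to 35.2 ± 4.47 FPKM (−0.62, adjusted p = 0.0029), and of Atp1b2, from 10.9 ± 0.762 to 7.06 ± 0.633 FPKM (−0.56, adjusted p = 0.000196; SD, n = 5).

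The rise of Fxyd5, in contrast, came with overlapping groups and was lost in several fits. Fxyd5 was at 30.7 ± 3.54 FPKM in FL mice and 40.1 ± 7.89 FPKM in KO mice (SD, n = 5; limma, log2 fold change 0.36, adjusted p 0.0486), and its call was lost without FL mouse 1, 2, 3 or 4 or KO mouse 1, 4 or 5 (adjusted p 0.0704 to 0.102).

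Mitochondria take up part of the calcium that enters the cytosol, through the uniporter, and Slc8b1 returns it. Of 8 genes of uptake reported here all were tested, 2 were called lower and 1 higher, and the median of their log2 fold changes was −0.16. Mcu, the pore of the uniporter, rose from 8.15 ± 0.560 to 9.86 ± 0.564 FPKM (SD, n = 5; limma, log2 fold change 0.25, adjusted p 0.00973), and its groups, 7.36 to 8.72 FPKM in FL and 9.21 to 10.4 FPKM in KO, did not overlap. Mcub, a relative of Mcu that lowers the activity of the uniporter, fell from 26.3 ± 1.74 to 14.1 ± 3.20 FPKM (SD, n = 5; limma, log2 fold change −0.88, adjusted p 0.000914), with KO values of 9.54 to 17.1 FPKM below FL values of 24.3 to 28.7 FPKM. The pore gene and its inhibitory relative thus moved in opposite directions. Letm1, which encodes an ion exchanger of the inner membrane, fell from 29.9 ± 2.07 to 24.7 ± 1.96 FPKM (SD, n = 5; limma, log2 fold change −0.27, adjusted p 0.013). Smdt1, Micu2, Micu3, Mcur1 and Letm2 were not called.

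**Figure D4:**
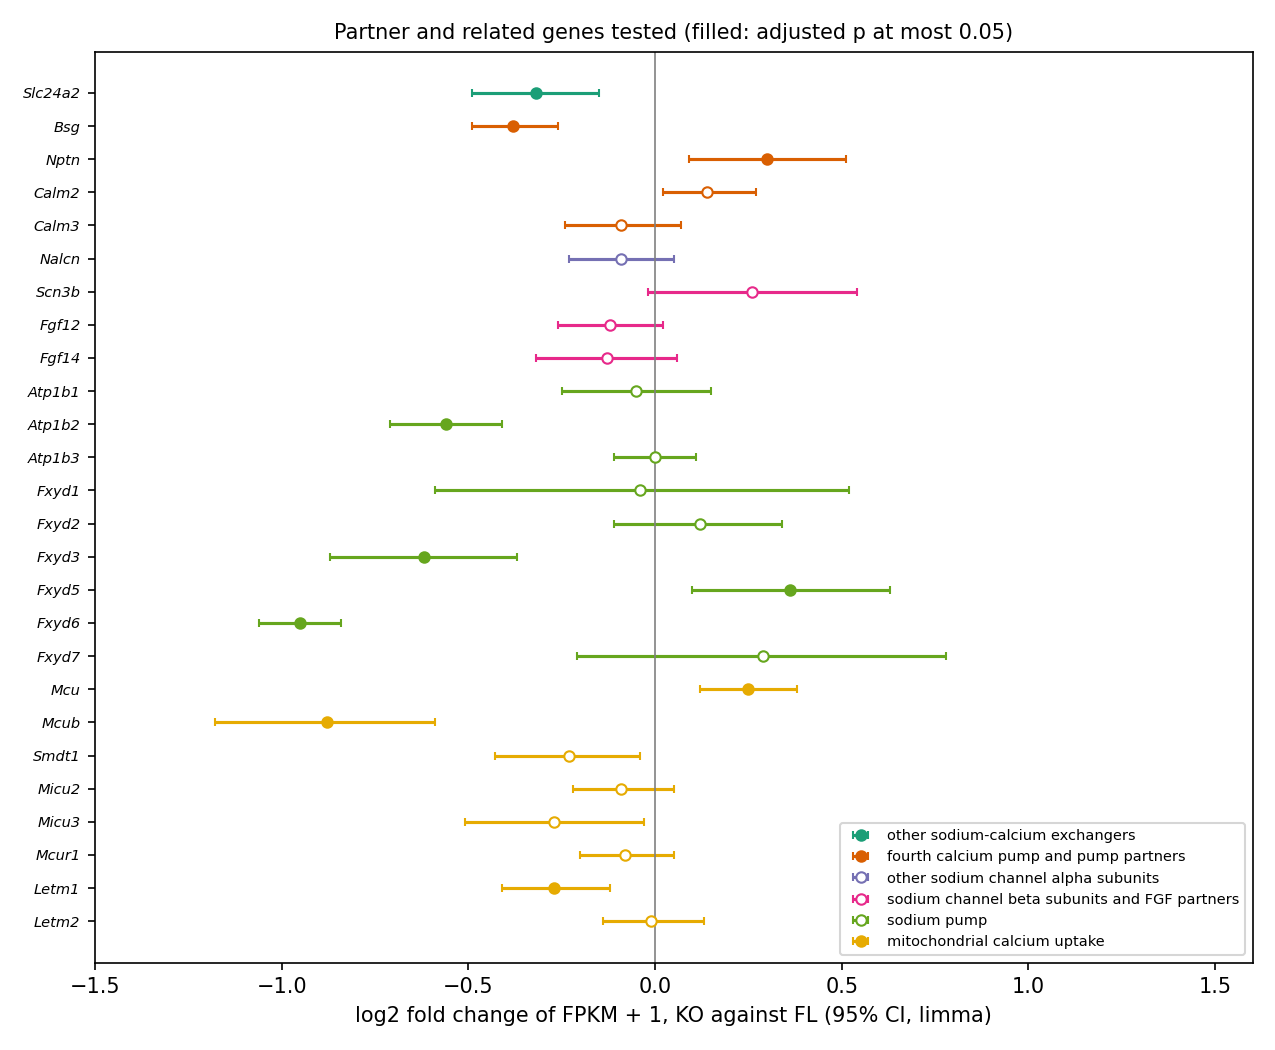
Log2 fold change of FPKM + 1 in KO against FL (horizontal axis, with 95% confidence interval from limma) of the tested partner and related genes, coloured by list and filled where the adjusted p is at most 0.05. Most points lie near 0, and those farthest from it are Fxyd6 at −0.95, Mcub at −0.88 and Fxyd3 at −0.62.

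Scn9a and Scn3a lie in a cluster of sodium channel genes on chromosome 2, and the genes around them give the local background of the rise in Scn9a. Of 10 genes of this stretch 5 were tested. Scn9a was called higher, Cobll1 was called lower, from 45.3 ± 2.42 to 37.2 ± 2.66 FPKM (SD, n = 5; limma, log2 fold change −0.28, adjusted p 0.0063), and Ttc21b, Galnt3 and Scn3a were not called. The means of Slc38a11, Scn2a, Csrnp3, Scn1a and Scn7a were under 1 FPKM in both groups. In this stretch the rise was thus called for Scn9a alone of the 5 genes tested, and no test of a difference between neighbours was made.

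The genes whose pattern over the 10 libraries was most like that of Scn9a were found by the root mean square difference in log2(FPKM + 1), each gene taken relative to its own FL mean. Cpxm2 (difference 0.09, from 0.0663 to 1.95 FPKM), Gpc6 (0.12, from 0.364 to 2.502 FPKM) and Egf (0.12, from 4.62 to 13.7 FPKM) were nearest. Of these only Egf had a level near that of Scn9a, and the likeness of Cpxm2 and Gpc6, which were under 1 FPKM in FL, rests on the pseudocount of 1. Nearest to Atp2b4 were Fam57b (0.08, from 10.7 to 6.38 FPKM), Hdac6 (0.08, from 60.3 to 36.7 FPKM) and Usp29 (0.09, from 17.3 to 10.5 FPKM). The measure compares each gene's change from its own FL mean over 5 FL and 5 KO mice, not its level, and is given as a description.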

How the data were processed

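RNASeq was performed on islets of 5 FL and 5 KO mice. Libraries were made from polyadenylated RNA with a stranded kit and read from 1 end over 75 nt. What the authors deposited is a single table in FPKM, 1 column to a mouse. The submitters' processing notes name STAR 2.5.2a, Cuffnorm 2.2.1 and the mm10/GRCm38 build. The scaling between libraries and the strand setting of the counting are not given in the sources used here. Read numbers cannot be had from FPKM, so counting errors are not given. Relative depth is the most frequent ratio of a gene's value in FL mouse 1 to its value in the library. It was taken over genes above 0 and under 0.3 FPKM in both.

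The comparison of KO with FL used lmFit and trended eBayes of limma 3.58.1 (R 4.3.3) on log2(FPKM + 1), without covariates. Genes entered if 1 group or both averaged at least 1 FPKM, and the Benjamini-Hochberg adjustment of p-values ran over all 13065 genes tested. Single genes were also compared by an exact permutation test over the 252 ways to divide 10 mice into 5 and 5. No p is given for sums, shares or lists, which are described by their values. Coordinates are from GENCODE release M21 (GRCm38), where 46841 of the 47340 identifiers matched without their version and 38723 with it. Slc8a1, Slc8a2 and Atp2b1 carry another version there. Promoters are from RefSeq. Tables and plots were made in Python 3.11.15 with numpy 2.4.6, pandas 2.3.3 and matplotlib 3.10.9.

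The 9 genes, the lists of related genes and the markers were chosen with earlier results of these data known. Described by their values are the 9 genes, Fitm2, every called gene of a pathway or neighbour list (or the highest if none was called), and the 3 genes most like the largest rise and the largest fall, while other genes of the lists are given by name, count or upper limit. The alternatives were pseudocounts of 0.1 and 0.01, no filter or a mean of at least 5 FPKM, rescaling by median ratio, by quantiles or to the same sum, limma without a trend or with sample weights, the replicate number as a block, a change of at least 1.5-fold, and leaving out each mouse in turn. Some genes of the lists are not reported here and were left out of the list counts and sums. The alternatives were applied to the related genes after their values had been seen. The procedure was tested on simulated data for KO against FL, where it recovered 195 of 200 genes changed by 1 log2 unit and called 9 unchanged genes. The changes were given only to genes with higher levels. Smaller changes, such as the falls of Atp2b4 and Slc8a1, and weakly expressed genes such as Slc8a2 were not covered.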

Additional observations from a re-analysis of the deposited data

Results flagged for a closer look

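For 2 genes 1 mouse stood apart from the other 4 of its group, by Dixon's test at the 95% level. Scn9a was at 5.56 FPKM in FL mouse 4, and the gap to the next FL mouse was 0.82 of the range of the FL group. Atp1b2 was at 5.97 FPKM in KO mouse 1, with a gap of 0.73 of the range of the KO group. Both values lay on the same side of the other group as the rest of their own. In all, 42 groups of 5 mice were checked and 2 were picked out, where chance picks out about 1 in 20.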

How the results depend on the processing

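The calls on Atp2b2, Atp2b4, Slc8a1, Slc8a2 and Scn9a kept their direction and their side of the threshold under each alternative that could test them, except where a change of at least 1.5-fold was required. With that requirement 639 genes were called over the whole table, 290 lower and 349 higher, and of the 9 genes 1 was lower (Atp2b4) and 1 higher (Scn9a), while Slc8a1, Slc8a2 and Atp2b2 no longer passed because their changes on this scale were smaller. With a mean of at least 5 FPKM, 6 of the 9 genes were tested, without Slc8a2, Slc8b1 and Scn3a. Over the alternatives the log2 fold change lay between 1.40 and 1.61 for Scn9a, −0.73 and −0.61 for Atp2b4, −0.53 and −0.41 for Atp2b2, −0.33 and −0.24 for Slc8a1, and −0.96 and −0.53 for Slc8a2, with adjusted p from limma of at most 0.0307. Atp2b1 had adjusted p between 0.0559 and 0.304 and was never called. With any 1 mouse left out, 4 of the 9 genes were lower and 1 higher, in all 10 fits. Of the related genes, Nptn and Fxyd5 also lost their calls without a filter on low values (adjusted p from limma of 0.0737 and 0.0954). Nptn lost its call with sample weights (0.0537) and Fxyd5 without a trend (0.0549), and both lost theirs where a change of at least 1.5-fold was required. Fxyd3, Fxyd6 and Mcub kept theirs under every alternative run, and Slc24a2, Bsg, Atp1b2, Mcu, Letm1 and Cobll1 under all but the 1.5-fold requirement.

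Of all genes called, 64.5% were lower (2150 lower, 1183 higher). This share was 52.1% after rescaling by median ratio (1685 and 1547), 53.3% after quantile normalization (1708 and 1494) and 51.1% after rescaling to the same sum (1536 and 1470), and the cause was not tested. The titles number the mice of each group, and same-numbered FL and KO mice did not deviate together, with correlations from −0.102 to 0.003. The main fit did not use the numbers as pairs. Such correlations cannot show whether the mice were paired, since other variation between mice can hide a pairing. With the replicate block, 2368 genes were called (1494 lower, 874 higher), and of the 9 genes again 4 lower and 1 higher. The number of reads behind a value is not known, which bears most on genes under 1 FPKM, such as most other sodium channel genes.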
